A study of Mus musculus with 4 samples.

Results

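The acute phase response and plasma protein module held 35 listed genes, chosen by name, and every probe set whose single gene symbol in the platform annotation was one of them. In all, 34 of the 35 genes had a probe set, 57 of the 22626 on the array, and these 34 were among 12393 genes named in the same way; Serpina3k had none. The study placed liver RNA from adult male C57BL6 mice on Affymetrix arrays on day 6 after an injection of adenovirus. In the control group the virus drove green fluorescent protein (GFP, 2 arrays), and in the other group it drove mouse lipin 1beta (Ad-lipin, 2 arrays). All 4 arrays therefore carried RNA from liver that had met an adenovirus, and no liver without virus was measured. The comparison asks which transcripts differ when lipin 1, a phosphatidate phosphatase that also acts with nuclear receptors, is overexpressed in place of GFP.

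The acute phase response is the change in liver secretion that follows infection or injury. Cytokines such as interleukin 6 and interleukin 1 act on hepatocytes through STAT3, C/EBP factors and NF-kB and raise the positive acute phase proteins, among them serum amyloid A, haptoglobin and orosomucoid. Albumin, transthyretin and fetuin A are negative acute phase proteins, whose mRNA falls in the same setting.

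The values are MAS5 signals, linear brightness values in arbitrary units, and differences are given as log2 of lipin over GFP after signals under 119.5 were raised to that floor. The 2% trimmed mean was 1501 on every array. Nothing in the labels says that arrays of a group came from separate mice, so a p-value covers the variation among these 4 samples alone, part of which may be technical. GFP replicate 2 stood apart: its correlations with the others averaged 0.731, those of the remaining arrays 0.781 to 0.793. The beta-actin 3' to 5' ratio, which rises as RNA degrades, stood there at 4.22, while GFP replicate 1 had 1.77 and lipin replicate 1 had 2.85. It also read high at the bright end, with the 200 brightest probe sets at a median of 0.18 above their mean over the arrays on the log2 scale, against -0.19 in GFP replicate 1. Lipin replicate 2 is labelled polyA RNA, the other 3 arrays total RNA, and its actin ratio was 2.86. The study's design text speaks of total RNA throughout, so this label and that text disagree. The brighter Lpin1 probe set read 7082 and 4632 on GFP replicates 1 and 2, 3854 on lipin replicate 1 and 11087 on lipin replicate 2. Only the last array exceeded both controls, so every direction below rests on the labels. Hepatocyte markers were bright on all 4 arrays, and 8 of 8 tested markers lay above 0 in the difference. Their signals summed to 401332 and 863687 in GFP and to 551430 and 888090 in lipin, and 6 of the 8 were higher on replicate 2 within each group.

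No acute phase gene passed the test. Of 32 members bright enough to test, each by its brightest tested probe set, 0 were called higher and 0 were called lower (limma, Benjamini-Hochberg adjusted p under 0.05 over 13576 probe sets, of which 0% were called in either direction), and their adjusted p ran from 0.962 to 1. At an unadjusted limma p under 0.05, 0 of the 32 were higher and 2 lower, namely Mt2 and Cebpd, where 2.66% of all 8493 genes tested were higher and 1.97% lower. For 7 members each lipin array was above each GFP array, and for 5 each was below, against 17.3% and 16% of all genes tested. The former were Saa1, Itih3, Itih4, Apcs, Cebpb, Socs3 and Ahsg, and the latter Saa2, Cp, Mt2, Steap4 and Cebpd. Over probe sets in place of genes, 12 of 52 tested lay wholly above and 11 wholly below, against 17.1% and 15.9%. At an unadjusted limma p under 0.05, 4 of the 52 were lower, 2 of Cp and 1 each of Mt2 and Cebpd, and 0 were higher, against 1.92% and 2.47% of all probe sets. The counts without overlap were close to the share over all genes, and the lower probe sets at that p include a pair from a single gene. For 1 gene, the smallest two-sided p that an exact permutation test can reach with 2 arrays a group is 0.333. In these bulk samples, fewer cells of a type and less RNA per cell cannot be told apart.

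**Figure D1:**
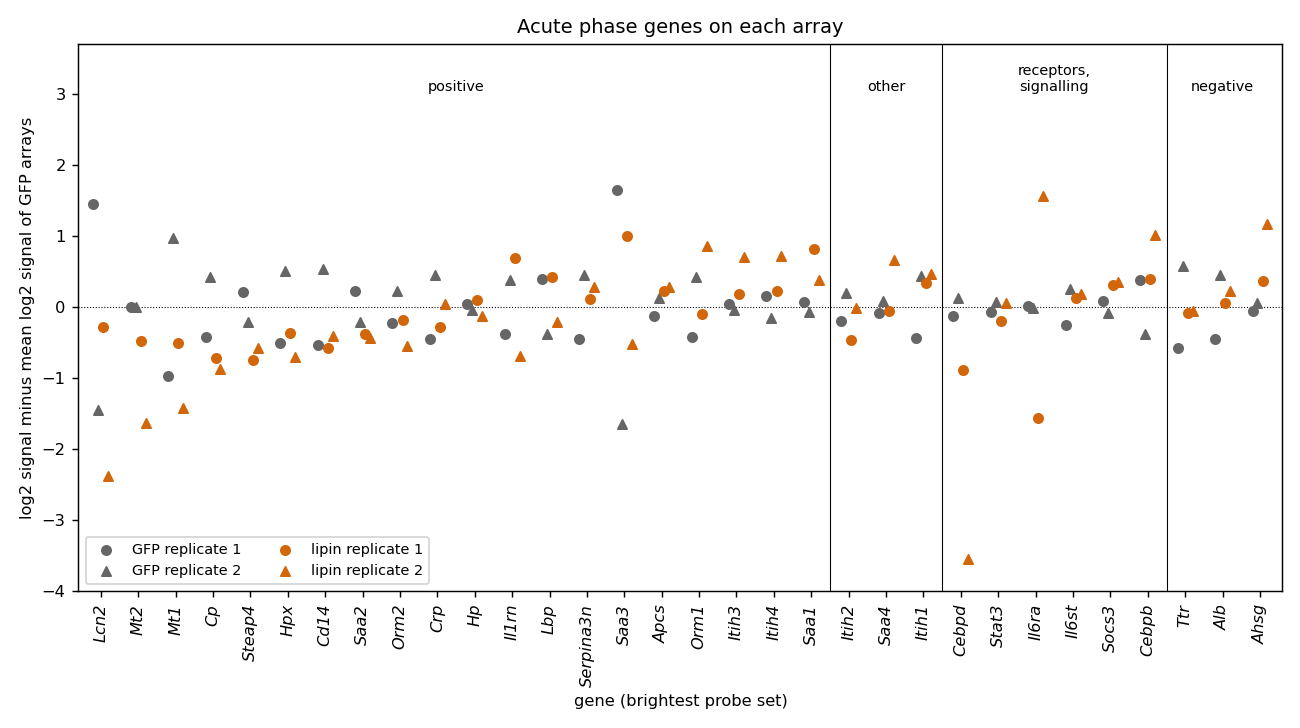
Log2 signal of each tested member gene (brightest probe set) on the 4 arrays, minus the mean of the GFP arrays; grey marks are GFP, orange marks lipin, circles replicate 1 and triangles replicate 2. The genes are grouped by role. Lcn2 and Saa3 are split within groups by replicate, and the lipin arrays lie below the GFP arrays for Mt2, Cp and Steap4.

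Positive acute phase proteins did not move one way. The 20 tested genes of the 21 in this role had a median log2 difference of -0.07, with 9 above 0 and 11 below. Over all genes tested the median was 0.00, with 4255 of 8493 above 0. In 4 of the 20 both lipin arrays were above both GFP arrays, in 4 both were below, and in 12 the groups overlapped. The 3 negative proteins had a median of 0.14. Without lipin replicate 1 the median of the positive proteins was -0.43, and leaving out any other array moved it by less than the spread between arrays of a group.

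Serum amyloid A genes encode small apolipoproteins of HDL, and Saa1 and Saa2 are near copies of each other that respond strongly to cytokines. The 250 bases before their starts (RefSeq, GRCm38.p6) are shown because the pair carry almost the same upstream sequence while their probe sets read in opposite directions here. They were identical in 238 of 251 aligned positions, or 94.8%, and capitals mark a match to the C/EBP motif TTGCNNAA. The Saa1 stretch lies on the minus strand at chr7:46742981-46743230 and the Saa2 stretch on the plus strand at chr7:46751583-46751832.
Saa1: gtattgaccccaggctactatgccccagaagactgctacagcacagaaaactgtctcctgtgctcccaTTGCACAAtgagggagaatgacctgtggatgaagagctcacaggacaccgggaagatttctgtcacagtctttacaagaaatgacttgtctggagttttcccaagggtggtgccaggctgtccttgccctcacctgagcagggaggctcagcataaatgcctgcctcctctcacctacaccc
Saa2: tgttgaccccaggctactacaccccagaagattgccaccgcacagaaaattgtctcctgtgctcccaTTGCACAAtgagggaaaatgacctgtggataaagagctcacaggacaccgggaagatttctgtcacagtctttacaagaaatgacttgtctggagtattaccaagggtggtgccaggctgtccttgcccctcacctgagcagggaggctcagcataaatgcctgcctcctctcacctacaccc

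The brighter Saa1 probe set read 2256 and 2043 on the GFP arrays and 3789 and 2802 on the lipin arrays. Both lipin arrays were above both controls, a log2 difference of 0.60 ± 0.42 (limma SE, n = 2 per group) or 1.52-fold (adjusted p = 0.962). A second Saa1 probe set, whose name ending marks probes that can match other transcripts, gave 0.62, but with GFP signals of 2858 and 1254 its groups overlapped. Saa2 was read by a single probe set of that kind, at 1165 and 860 in GFP and 770 and 736 in lipin. Here both lipin arrays were below, by -0.41 ± 0.73 on the log2 scale. Since the transcripts are near copies, signal can be shared between them.

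Saa3, made by macrophages and other cells as well as hepatocytes, split by replicate and not by group. Its signals were 6933 in GFP replicate 1 and 4438 in lipin replicate 1, and 707 and 1547 in the second arrays of each group. The log2 difference of 0.24 ± 0.80 turned to -1.40 when GFP replicate 2 was left out and to 1.89 when GFP replicate 1 was. Lcn2, lipocalin 2, which binds bacterial iron carriers and is also made by neutrophils and macrophages, had the same order. It read 7365 in GFP replicate 1 and 2214 in lipin replicate 1, against 987 and 518 on the second arrays. Its difference of -1.33 ± 0.83 was the lowest of the positive group, with overlapping groups, and became 0.12 without GFP replicate 1.

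Most macrophage markers had the same order. Of 9 tested Kupffer cell and macrophage markers of the 13 listed, none passed the limma test. In 7 of them the replicate 1 array was the higher within each group, and in 2, Clec4f and Vsig4, replicate 2 was. Their signals summed to 54262 and 30073 in GFP and to 52172 and 34293 in lipin, a sum that the brightest of them, Csf1r, weighs on most. Csf1r, the receptor for macrophage colony-stimulating factor, read 26254 and 16714 in GFP and 22294 and 12732 in lipin on its brightest probe set. Its second probe set kept that order. The third did not, at 1998 and 2547 in GFP and 3362 and 1906 in lipin. Clec4f, a lectin of Kupffer cells, ran the other way, at 210 and 1245 in GFP and 1413 and 2136 in lipin. Lbp, the plasma protein that hands bacterial lipopolysaccharide to CD14, read 6103 and 3568 in GFP and 6223 and 4036 in lipin, with replicate 1 the higher in both groups as for Saa3 and Lcn2. Saa1, Saa2 and Hp had that order too on their brightest probe sets, by smaller margins. The order was therefore not confined to Saa3, Lcn2 and Lbp among the members. Of 6 tested neutrophil markers, 1 had replicate 1 higher in both groups, 3 had replicate 2 higher and 2 were mixed, with sums of 7546 and 6878 in GFP and 4686 and 4733 in lipin. The 1 was S100a8, a calcium-binding protein abundant in neutrophils, at 4026 and 489 in GFP and 1674 and 972 in lipin. The part of either cell type in the values of Saa3, Lcn2 and Lbp was not tested. The replicate numbers are from the sample titles, and the genes of this order were picked out after their values were seen. The share of all genes tested with either replicate order is not given here, so the marker counts stand without a background.

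Orosomucoids are abundant acute phase glycoproteins that carry lipids and drugs. Orm1 read 8171 and 14689 in GFP and 10205 and 19806 in lipin, a log2 difference of 0.38 ± 0.39 with overlapping groups. Leaving out GFP replicate 1 gave -0.05, and leaving out lipin replicate 2 gave -0.10. Orm2 was dimmer on its own probe set, at 494 and 679 in GFP and 509 and 394 in lipin, and differed by -0.37 ± 1.11. All 4 signals of Orm3 lay under the floor, so it was not tested. No member of this family stood apart from the spread between arrays.

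Haptoglobin, which binds free hemoglobin, read alike in both groups. Hp read 54311 and 50938 in GFP and 56056 and 48116 in lipin, a log2 difference of -0.02 ± 0.35. Hpx, hemopexin, which binds free heme, read 567944 and 1150199 in GFP and 627665 and 497173 in lipin. Its difference of -0.53 ± 0.73 was -0.02 without GFP replicate 2, the array on which it was 2.03 times as bright as on the other control. The pair of scavengers thus showed no difference between groups beyond the spread of the arrays.

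The inter-alpha-trypsin inhibitor heavy chains, which are secreted and bind hyaluronan, included 2 of the positive proteins with separate groups. Itih3 read 17315 and 16332 in GFP and 19119 and 27311 in lipin, or 0.44 ± 0.32 on the log2 scale, and Itih4 had 36625 and 29620 against 38349 and 53868, or 0.46 ± 0.34. Both lipin arrays exceeded both controls for each gene, and lipin replicate 2 was the brightest array for both. Without that array the differences were 0.19 for Itih3 and 0.22 for Itih4. Of the chains without a clear acute phase role, Itih1 read 6983 and 12798 in GFP and 11935 and 13054 in lipin (0.40 ± 0.35, overlapping). Itih2 had 38342 and 50362 in GFP and 31710 and 43445 in lipin (-0.24 ± 0.35, overlapping).

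Pentraxins, pattern-recognition proteins of plasma, differed little. Apcs, serum amyloid P, the main acute phase pentraxin of the mouse, read 5075 and 6025 in GFP and 6440 and 6682 in lipin. All lipin values lay above the controls by a small margin, 0.25 ± 0.34 on the log2 scale or 1.19-fold. Crp read 18544 and 34647 in GFP and 20785 and 26126 in lipin, a difference of -0.12 ± 0.36, with both lipin arrays between the controls. Serpina3n, a serine protease inhibitor induced by cytokines, read 6525 and 12088 in GFP and 9570 and 10806 in lipin, again with both lipin arrays between the controls (0.20 ± 0.36).

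Saa4, the serum amyloid A that is made constitutively, had 2 probe sets with differences of 0.30 and 0.54. The brighter read 17307 and 19382 in GFP and 17656 and 28815 in lipin, with overlap, and was -0.05 without lipin replicate 2. The dimmer read 2765 and 3679 in GFP and 3982 and 5373 in lipin, with no overlap. For Lbp, described above with the replicate order, the log2 difference was 0.10 ± 0.39. Cd14, the lipopolysaccharide coreceptor, read 1021 and 2148 in GFP and 991 and 1110 in lipin (-0.50 ± 0.62), and GFP replicate 2 alone made the gap, which was 0.04 without it. Il1rn, the interleukin 1 receptor antagonist, had 3 probe sets at 0.00, -0.90 and -0.36, so no direction can be given for it.

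Cp, Mt1, Mt2 and Steap4 are described next, put side by side after their values were seen and so with no test as a group. Cp encodes ceruloplasmin, the copper-carrying ferroxidase of plasma, Mt1 and Mt2 encode metallothioneins, which bind zinc and copper, and Steap4 is a metalloreductase for iron and copper. On the brightest probe set both lipin arrays were below both controls for Cp, Mt2 and Steap4, while the groups overlapped for Mt1, and none passed the limma test (adjusted p = 0.962 for each). Lcn2 and Hpx, described above, also bind iron carriers or heme, and their groups overlapped.

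Cp had 7 probe sets, and on the 5 brightest both lipin arrays were below both GFP arrays. The brightest read 499931 and 892009 in GFP and 403898 and 362965 in lipin, a log2 difference of -0.80 ± 0.66. The next read 388058 and 639437 in GFP against 243265 and 296624 in lipin, and the third 139480 and 258578 against 114505 and 79783. GFP replicate 2 was the highest array on each of these 3, which are among the brightest probe sets of the array. On the fourth, GFP replicate 2 was again the highest array, with 28808 and 40670 in GFP and 20905 and 15819 in lipin (-0.91 ± 0.33). On the fifth, GFP replicate 1 was the highest array, with 17014 and 10056 in GFP and 5478 and 6527 in lipin (-1.13 ± 0.35, limma adjusted p = 0.962). Across these 5 probe sets the GFP arrays were 1.74 to 2.19 times as bright as the lipin arrays on the geometric mean. Probe sets of a gene share its RNA sample and are not replicates of the condition. The other two were dim: one read 65.2 and 1086 in GFP and 773 and 543 in lipin (0.85 ± 1.30), and one, at 178 and 1033 against 85.5 and 656, was too dim to test. The 5 bright differences stayed below 0 with any array left out, between -1.51 and -0.38 without GFP replicate 2, the array that stood apart. After quantile normalization the brightest stood at -0.48.

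**Figure D2:**
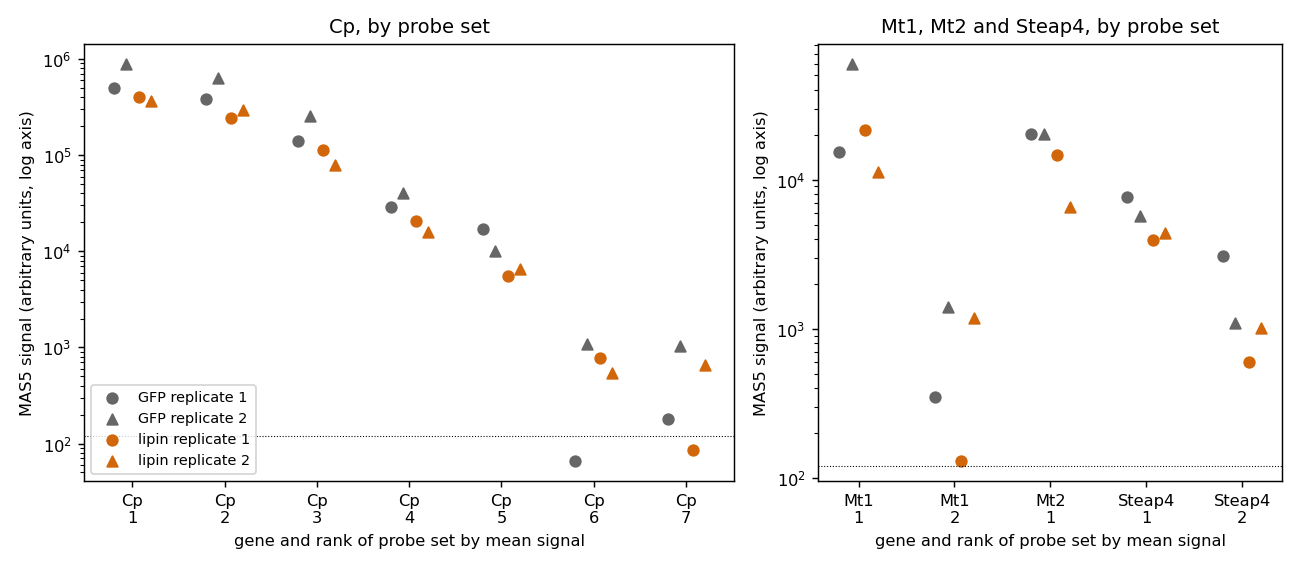
MAS5 signal (log axis) of every probe set of Cp, and of Mt1, Mt2 and Steap4, on each array, numbered by rank of mean signal within the gene; the dotted line is the floor of 119.5. Grey marks are GFP, orange marks lipin. On Cp probe sets 1 to 5, on Mt2 and on both Steap4 probe sets every orange mark lies below both grey marks, and on Cp probe sets 6 and 7 and on Mt1 they overlap.

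Metallothionein genes are switched on by zinc through metal response elements and by glucocorticoids and cytokines. Mt2 read 20315 and 20320 on the GFP arrays, and 14523 and 6525 on the lipin arrays. The controls were nearly equal and both lipin arrays lay lower, but the lipin arrays differed 2.23-fold from each other, and lipin replicate 2, the lower, is the array whose RNA label differs. The log2 difference was -1.06 ± 0.37 (limma adjusted p = 0.962), and -0.48 without that array. Mt1 read 15439 and 59768 in GFP and 21370 and 11336 in lipin on its bright probe set, whose name ending marks probes that can match other transcripts. Its groups overlapped, and the difference of -0.96 ± 0.50 was 0.01 without GFP replicate 2. A dim Mt1 probe set read 347 and 1402 against 129 and 1178.

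Steap4 had both lipin arrays below both controls on each of its 2 probe sets. The brighter read 7613 and 5665 in GFP and 3925 and 4414 in lipin, a log2 difference of -0.66 ± 0.35. The dimmer read 3053 and 1096 in GFP and 598 and 1013 in lipin, or -1.23 ± 0.67. The controls differed 2.79-fold on the dimmer probe set, so its gap rests mainly on GFP replicate 1.

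The 250 bases before the starts of Mt2 and Steap4 are shown as the promoters of members whose lipin arrays were all lower (RefSeq, GRCm38.p6, both on the plus strand). Capitals mark matches on either strand to the metal response element (TGCACNC or TGCGCNC), C/EBP (TTGCNNAA) and STAT3 (TTCNNNGAA) motifs. The Mt2 stretch, chr8:94172368-94172617, holds 3 metal response element matches and 1 C/EBP match, and the Steap4 stretch, chr5:7960222-7960471, holds 1 STAT3 match and 1 C/EBP match.
Mt2: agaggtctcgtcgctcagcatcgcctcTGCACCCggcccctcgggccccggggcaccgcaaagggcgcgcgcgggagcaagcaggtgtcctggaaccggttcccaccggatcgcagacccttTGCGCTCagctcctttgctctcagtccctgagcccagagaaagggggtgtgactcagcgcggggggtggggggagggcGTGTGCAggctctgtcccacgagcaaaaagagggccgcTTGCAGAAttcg
Steap4: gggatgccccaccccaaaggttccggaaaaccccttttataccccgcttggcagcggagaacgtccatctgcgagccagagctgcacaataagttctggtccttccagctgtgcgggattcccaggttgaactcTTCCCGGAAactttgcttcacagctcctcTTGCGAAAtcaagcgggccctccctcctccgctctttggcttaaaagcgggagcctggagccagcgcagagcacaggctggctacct

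Among 32 upstream windows of 28 members in the RefSeq table, 15 (46.9%) held the C/EBP motif, compared with 9.56% of all 32851 windows of the same length. Orm1, Hp, Lbp, Cd14, Cebpd and Ttr are not among the 28. The 15 genes were Ahsg, Alb, Cp, Hpx, Il1r1, Itih2, Lcn2, Mt2, Orm2, Orm3, Saa1, Saa2, Saa3, Saa4 and Steap4. The STAT3 motif was in 4 member windows (12.5%, against 7.02% of all), those of Apcs, Itih4, Socs3 and Steap4. The metal response element was in 4 as well (12.5%, against 21.4%), and the NF-kB motif (GGGANTTCC, with or without a further T in the T run) was in 0, against 1.78% of all windows. The C/EBP matches lay upstream of genes that read higher in the lipin arrays, such as Saa1 and Ahsg, and of others that read lower, such as Cp and Steap4. Such a match is a string of letters and not a shown binding site. The member windows are not independent, since those of Saa1 and Saa2 are near copies, and those of Cp and some of Il1rn overlap. The comparison is with all genes and not with other genes of the liver.

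The negative acute phase proteins gave the clearest value for Ahsg, fetuin A, an inhibitor of calcification that hepatocytes secrete. It read 60736 and 65486 in GFP and 81384 and 141438 in lipin, a log2 difference of 0.77 ± 0.40 or 1.70-fold (limma adjusted p = 0.962). Both lipin arrays exceeded both controls, while lipin replicate 2 was 1.74 times as bright as lipin replicate 1. Without lipin replicate 2 the difference was 0.37.

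Albumin, the main plasma protein, overlapped between groups. Alb read 571407 and 1069105 in GFP and 809335 and 912532 in lipin, both lipin arrays between the controls, and differed by 0.14 ± 0.77. Ttr, transthyretin, which carries thyroid hormone and retinol-binding protein, had 3 bright probe sets that did not read alike. The brightest read 564612 and 1250244 in GFP and 789737 and 807141 in lipin (-0.07 ± 0.78), and the second likewise placed both lipin arrays between the controls (-0.09 ± 0.58). The third read 206006 and 255127 in GFP and 340294 and 347904 in lipin, with both lipin arrays above (0.59 ± 0.53). The name endings of the first and second mark probes that can match other transcripts, and that of the third does not. On the Alb and on the first and second Ttr probe sets GFP replicate 2 was 1.87 to 2.21 times as bright as GFP replicate 1, the same order as at the bright end of the array as a whole.

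The stretches before the starts of Alb and Ahsg (RefSeq, GRCm38.p6, plus strand) are shown to set the negative proteins beside the positive ones. The Alb stretch, chr5:90460620-90460869, holds 1 C/EBP match, and the Ahsg stretch, chr16:22891765-22892014, holds 1 C/EBP match and 1 metal response element match, in capitals.
Alb: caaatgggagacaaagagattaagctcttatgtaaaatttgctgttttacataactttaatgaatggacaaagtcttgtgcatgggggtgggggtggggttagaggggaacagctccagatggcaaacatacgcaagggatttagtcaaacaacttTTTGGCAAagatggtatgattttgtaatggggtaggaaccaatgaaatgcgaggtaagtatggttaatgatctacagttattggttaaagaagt
Ahsg: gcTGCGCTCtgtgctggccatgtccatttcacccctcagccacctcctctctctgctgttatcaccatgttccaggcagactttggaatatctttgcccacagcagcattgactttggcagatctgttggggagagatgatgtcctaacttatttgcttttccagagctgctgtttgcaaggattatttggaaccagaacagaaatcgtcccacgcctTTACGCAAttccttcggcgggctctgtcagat

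The upstream genes were dimmer than Alb, Ttr and Ahsg, and several differed in sign or size between their probe sets. Cebpb, a C/EBP transcription factor induced by interleukin 6 signalling, had separate groups on both of its probe sets. It read 4575 and 2717 in GFP and 4617 and 7086 in lipin on the brighter probe set (0.70 ± 0.40) and 693 and 666 against 953 and 860 on the dimmer (0.41 ± 0.78). On the brighter, lipin replicate 1 exceeded GFP replicate 1 slightly, and the difference was 0.32 without GFP replicate 2. Cebpd, its relative in the acute phase, pointed the other way on its tested probe set. That probe set read 1276 and 1521 in GFP, 753 in lipin replicate 1 and 94.9, under the floor, in lipin replicate 2, and gave -2.22 ± 1.03 (limma adjusted p = 0.962). The value was -0.89 without lipin replicate 2, and the other Cebpd probe set, too dim to test, read 449 and 102 in GFP and 280 and 694 in lipin.

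Socs3, the feedback inhibitor of interleukin 6 signalling, had 3 tested probe sets with differences of 0.33, 1.11 and 1.59. The brightest read 1312 and 1158 in GFP and 1523 and 1568 in lipin, separate by a small margin (0.33 ± 0.55). The second read 256 in GFP replicate 1 and 3022 in GFP replicate 2, with 2298 and 1574 in lipin between them, and the third read 118 and 817 in GFP and 1068 and 832 in lipin. The size of the difference on these was set by the low reading of GFP replicate 1. Stat3, the transcription factor downstream of the receptor, was steady on its brightest probe set, at 9321 and 10317 in GFP and 8531 and 10154 in lipin (-0.08 ± 0.32). Its dimmest gave 1.18 ± 0.82, from 675 and 423 in GFP and 1932 and 756 in lipin.

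The receptors showed no direction. Il6ra, the interleukin 6 receptor chain, read 746 and 731 in GFP but 249 and 2170 in lipin on its brightest probe set. The lipin arrays thus lay on either side of the controls, 8.70-fold apart. A second Il6ra probe set also overlapped, at 677 and 81.4 in GFP and 161 and 2058 in lipin (1.02 ± 1.58). Il6st, which encodes the signalling chain gp130, read 1770 and 2509 in GFP and 2304 and 2380 in lipin on its brightest probe set, with both lipin arrays between the controls (0.15 ± 0.45). So did the second, at 1490 and 87.1 in GFP and 483 and 782 in lipin (0.54 ± 1.30). Il1r1, the interleukin 1 receptor, was too dim to test, with signals of 125 and 461 in GFP and 324 and 105 in lipin.

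**Figure D3:**
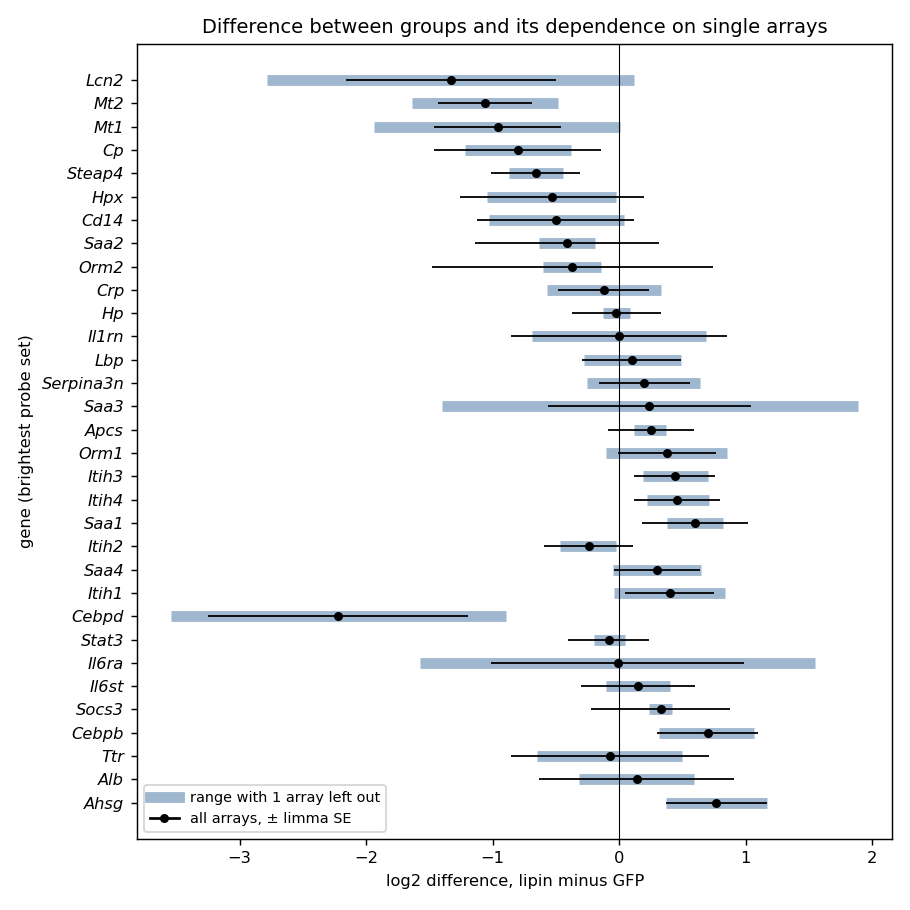
Log2 difference between lipin and GFP for the 32 tested members, each on its brightest tested probe set (points, with limma's standard error as black bars). Blue bars give the range of the difference when each of the 4 arrays is left out in turn. The blue bars cross 0 for 17 of the 32 genes, among them Saa3, Lcn2, Mt1 and Il6ra, and stay on one side of 0 for 15, among them Cp, Mt2, Steap4, Cebpb and Ahsg.

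Of the 12 members with several tested probe sets, all tested probe sets lay on one side of 0 in 7 and on both sides in 5, namely Cp, Il1rn, Il6ra, Stat3 and Ttr. With an array left out in turn, 15 of the 32 genes kept the sign of their difference on their brightest tested probe set and 17 did not. The genes that kept it were Saa1, Saa2, Orm2, Hpx, Itih2, Itih3, Itih4, Apcs, Cp, Mt2, Steap4, Cebpb, Cebpd, Socs3 and Ahsg. Dimmer probe sets of these genes could turn. Without GFP replicate 1, the second of Socs3 went from 1.11 to -0.67, and a dim one of Cp from 0.85 to -0.75.

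Further genes of the response, from a list made beside the members, were read for comparison. Of 9 other positive genes tested of 13, 0 passed in either direction, 7 lay above 0 and the median log2 difference was 0.41. The smallest p values were those of Cfb, complement factor B (0.60 ± 0.33), Fga, the fibrinogen alpha chain (0.67 ± 0.38), and Fgb, the fibrinogen beta chain (0.41 ± 0.43). Fga read 50051 and 49794 in GFP and 62689 and 100261 in lipin. The 3 fibrinogen chains, which the liver assembles into a single protein, all had both lipin arrays above both controls. Over all genes tested, 17.3% had that order. Lipin replicate 2 was the brightest array for each chain. For Fgb, lipin replicate 1 was nearly level with GFP replicate 1, at 106688 against 106536. Fgg, at 0.34 ± 0.39, read 80437 and 73734 in GFP and 85348 and 110627 in lipin.

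Of 7 other negative genes tested of 9, 7 lay above 0, with a median of 0.40, and 0 passed. Igfals, the acid-labile subunit that holds IGF1 in plasma, read 2716 and 3246 in GFP and 5535 and 8187 in lipin (1.18 ± 0.37, limma adjusted p = 0.962). Serpina6, the corticosteroid-binding globulin, read 14344 and 8095 in GFP and 19672 and 22646 in lipin (0.97 ± 0.35). Fetub, fetuin B, read 6075 and 11740 in GFP and 10264 and 18377 in lipin (0.70 ± 0.39, overlapping). Both other lists thus had positive medians, the positive and the negative genes alike, and the hepatocyte markers had a median of 0.52. The part of the hepatocyte marker level in these values was not tested.

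Of 23 upstream cytokine and signalling genes tested of 30, 6 lay above 0 and 17 below, with a median of -0.42, and 0 passed. Cebpa, the C/EBP factor of the resting hepatocyte, read 11483 and 8650 in GFP and 14439 and 19566 in lipin (0.75 ± 0.33). Rela, an NF-kB subunit, read 4398 and 1369 in GFP and 5163 and 5216 in lipin (1.08 ± 0.49). Jak1, a kinase of the interleukin 6 receptor, read 10776 and 7332 in GFP and 5316 and 5882 in lipin on its brightest probe set (-0.67 ± 0.34). A second Jak1 probe set went the other way, at 3342 and 2376 in GFP and 4032 and 3438 in lipin (0.40 ± 0.40). No direction can therefore be given for Jak1. The limma adjusted p was 0.962 for each of these. Of the cytokines, Il6 and Il1a were too dim to test. Il1b read 1574 and 662 in GFP and 582 and 975 in lipin, with overlap (-0.44 ± 0.77), and Tnf read 609 and 229 in GFP and 665 and 1217 in lipin, with both lipin arrays above (1.27 ± 1.03, limma adjusted p = 0.962).

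**Figure D4:**
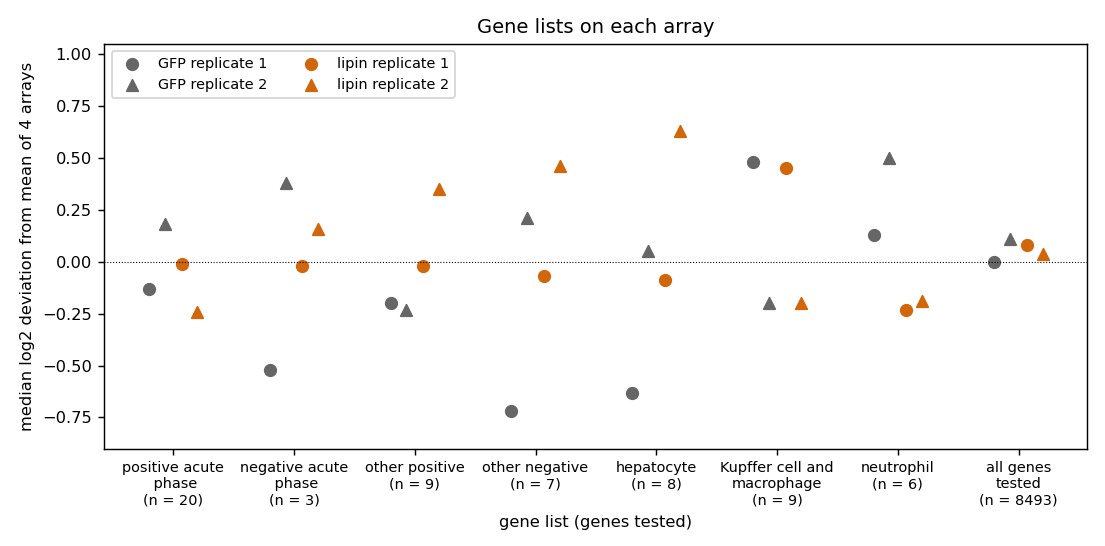
Median log2 deviation of each gene list from its mean over the 4 arrays, 1 mark per array (grey GFP, orange lipin; circles replicate 1, triangles replicate 2), with the number of genes tested under each list. Positive acute phase genes run from -0.24 to 0.18 with the groups overlapping, negative ones from -0.52 to 0.38, and macrophage markers stand at 0.48 and 0.45 on the replicate 1 arrays and at -0.20 on both replicate 2 arrays.

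By list and array, the positive acute phase genes had medians of -0.13 and 0.18 from their mean over the arrays on the GFP arrays, and -0.01 and -0.24 on those labelled lipin. The negative ones stood at -0.52 and 0.38 in GFP and -0.02 and 0.16 in lipin. Within each list the lipin arrays overlapped the GFP arrays or lay between them. Positive against negative proteins therefore showed no opposed movement that exceeded the spread between arrays of a group, which was 0.19 for the positive list and 0.46 for the negative list (pooled SD of the array medians).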

How the data were processed

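The deposited values are linear intensity values, 1 MAS5 signal per probe set and array (MAS5 per the submitters' processing notes, version and scaling target not given in the sources used here). They were used without further normalization. The 64 control probe sets of 22690 were dropped. A floor at 119.5 (the 20th percentile of signals) was set before log2, and the 13576 probe sets whose mean reached the 40th percentile entered a two-sided limma 3.58.1 fit in R 4.3.3 (lmFit, eBayes with trend), Benjamini-Hochberg adjusted across them. Groups came from the sample titles. Gene values are those of the brightest tested probe set, and symbols came from the platform annotation; all 34 member genes matched the RefSeq gene table by Entrez identifier. Every member was named. Of the 3 wider pathway lists, the 3 tested genes with the smallest p were named; Fgg, Il1b, Tnf and the named cell type markers were chosen after their values were seen. Members and lists were chosen with earlier results of these data known. Promoter windows came from RefSeq (GRCm38.p6) and were searched by string match. MAS5 subtracts mismatch probes and scales linearly, which leaves dim probe sets noisy.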

Additional observations from a re-analysis of the deposited data

How the results depend on the processing

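No member gene was called higher or lower under any alternative run. Over all probe sets the calls went from 0 and 0 to 34 higher and 18 lower with the replicate number as a block. That fit had infinite prior degrees of freedom, in which single genes have no spread of their own. So did the fits without lipin replicate 1 and without lipin replicate 2, whose counts are given below. Over the 13576 probe sets together, same-numbered arrays' deviations correlated at 0.0283. Most of the hepatocyte and macrophage markers above kept a replicate order in both groups. Whether the numbers mark a pairing was not tested. With 1 array left out, 0 to 7 were higher (7 without lipin replicate 1, 1 without GFP replicate 2) and 0 to 6 lower (6 without lipin replicate 1, 3 without lipin replicate 2, 1 without GFP replicate 2); the lone array of its group is then assumed to vary like the others. The median of the positive proteins ran from -0.43 to -0.01 and that of the negative ones from -0.32 to 0.59 with an array left out. Without probe sets that can match other transcripts, the positive median was -0.07 and the negative median 0.59.

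Signs turned as follows. Hp was 0.03 after median centring. Il6ra was 0.01 after quantile normalization, 0.04 after median centring, 0.01 without a floor and 0.51 as the mean of its probe sets. As such means Il1rn was -0.42, Stat3 0.32 and Ttr 0.14, and Ttr was 0.12 after quantile normalization and 0.59 without probe sets that can match other transcripts. With an array left out, Saa3 ran from -1.40 to 1.89, Orm1 from -0.10 to 0.85, Hp from -0.13 to 0.09, Lcn2 from -2.78 to 0.12, Crp from -0.57 to 0.33, Serpina3n from -0.25 to 0.64, Lbp from -0.28 to 0.49, Cd14 from -1.03 to 0.04, Il1rn from -0.69 to 0.69, Mt1 from -1.94 to 0.01, Saa4 from -0.05 to 0.65, Itih1 from -0.04 to 0.84, Il6ra from -1.57 to 1.55, Il6st from -0.10 to 0.40, Stat3 from -0.20 to 0.05, Alb from -0.32 to 0.59 and Ttr from -0.65 to 0.50. These were 10 of 301 values under the other alternatives and 24 of 128 with an array left out. With 2 arrays a group, precision is low throughout.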
